A study of Macaca mulatta with 30 samples.

Results

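Salivary glands and the exocrine pancreas secrete fluid by moving chloride or bicarbonate across an epithelium, and 9 genes of that machinery were followed here across 5 rhesus macaque tissues. The set is a list of gene names. It comprises the anion channels and exchanger of the apical membrane (ANO1, CFTR and SLC26A6), the basolateral carriers that load chloride or bicarbonate (SLC12A2, SLC4A2 and SLC4A4), the potassium channels KCNN4 and KCNMA1, and the sodium pump subunit ATP1B1. All 9 were found among the 21292 genes of the deposited table, and all 9 were among the 13550 genes that reached at least 1 TPM in at least 6 libraries and were tested. TPM is a level corrected for transcript length and scaled to a fixed total in each library, so levels of different genes are compared here per length. The number of libraries at or above 1 TPM was 30 for SLC4A2, SLC26A6, KCNN4 and ATP1B1, 29 for KCNMA1, 26 for ANO1, 14 for SLC12A2, 12 for CFTR and 9 for SLC4A4, and no library listed any of them at 0. SLC4A4 passed this minimum through pancreas and liver libraries only.

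RNA was sequenced from flash-frozen pancreas, liver and 3 salivary glands (parotid, submandibular, sublingual) of 6 Macaca mulatta, 1 sample per tissue and animal, which gave 30 libraries. There were 4 females (animals 1 to 4) and 2 males (animals 5 and 6). No treatment or engineered genotype is named in the labels, and no age is given there. The parotid of animal 3 was the right gland and the other parotids the left. Each tissue thus had 6 biological replicates paired by animal. Every library sums to the same total, so the sequencing depth is unknown.

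In secretory acini, SLC12A2 (the Na-K-2Cl cotransporter NKCC1) brings chloride into the cell across the basolateral membrane on the sodium gradient set by the Na,K-ATPase. A rise in cell calcium opens the apical chloride channel ANO1 and the potassium channels KCNN4 and KCNMA1, whose current keeps the driving force for chloride exit, and water follows. Pancreatic duct cells instead load bicarbonate through the sodium bicarbonate cotransporter SLC4A4 and release it through CFTR and the exchanger SLC26A6, while the chloride-bicarbonate exchanger SLC4A2 serves pH control and anion loading in many epithelia, bile ducts and acini among them.

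Each library was compared with marker genes of its labelled tissue, and 4 libraries stood apart. In the pancreas of animal 4, the summed level of the 10 acinar enzyme genes in the table was 4348 TPM, against 195002 to 396407 in the other pancreas libraries. In the submandibular gland of animal 4 the 9 salivary secretory genes summed to 2295 TPM, against 225799 to 340108, and in its sublingual gland to 5494 TPM, against 38050 to 369678; in liver this sum was 6224 to 9148 TPM. The pancreas and submandibular libraries of animal 4 also had the highest sums of 5 adipose genes (6464 and 3191 TPM, against 292 TPM or less in every other library), of 4 blood genes (13430 and 10376 TPM) and of 5 nerve and glia genes (1252 and 1108 TPM). The parotid of animal 6 carried 93648 TPM of 8 skeletal muscle genes, while its salivary sum of 77894 TPM lay within the range of the other parotids. The liver of animal 4 did not stand apart, and its hepatocyte sum of 151519 TPM was the highest of the livers. Smaller departures were 26524 TPM of skeletal muscle genes in the sublingual gland of animal 5 and 9627 TPM in that of animal 1, and 132639 TPM of 6 islet genes in the pancreas of animal 3. The sublingual libraries also varied in 6 lymphocyte and plasma cell genes, which summed to 187 to 9086 TPM there and to 427 TPM or less in the other tissues. Results that rest on these libraries are given with and without them, as fits that leave out 3 libraries (pancreas and submandibular of animal 4, parotid of animal 6) or 4 (also the sublingual of animal 4). The part of this tissue content in the differences between tissues was not tested.

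Across the 10 pairs of tissues, 47 of the 90 tests of these genes passed an adjusted p of 0.05. The share of all genes called ran from 0.347% (parotid against submandibular gland) to 58.0% (parotid against liver) by pair. By gene, 7 of 10 pairs passed for ANO1 and SLC4A4, 6 for CFTR, KCNN4 and KCNMA1, 5 for SLC4A2, 4 for SLC12A2 and ATP1B1, and 2 for SLC26A6. Of the 47 calls, 36 held in all 6 fits that left out an animal, 36 held under every other setting tried, and 31 held throughout. The genes divided by tissue: the potassium channels were high in all 3 glands, SLC12A2 was high in the sublingual gland, SLC4A4 was high in pancreas, CFTR was high in pancreas and submandibular gland, and ANO1 was low in pancreas.

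**Figure D1:**
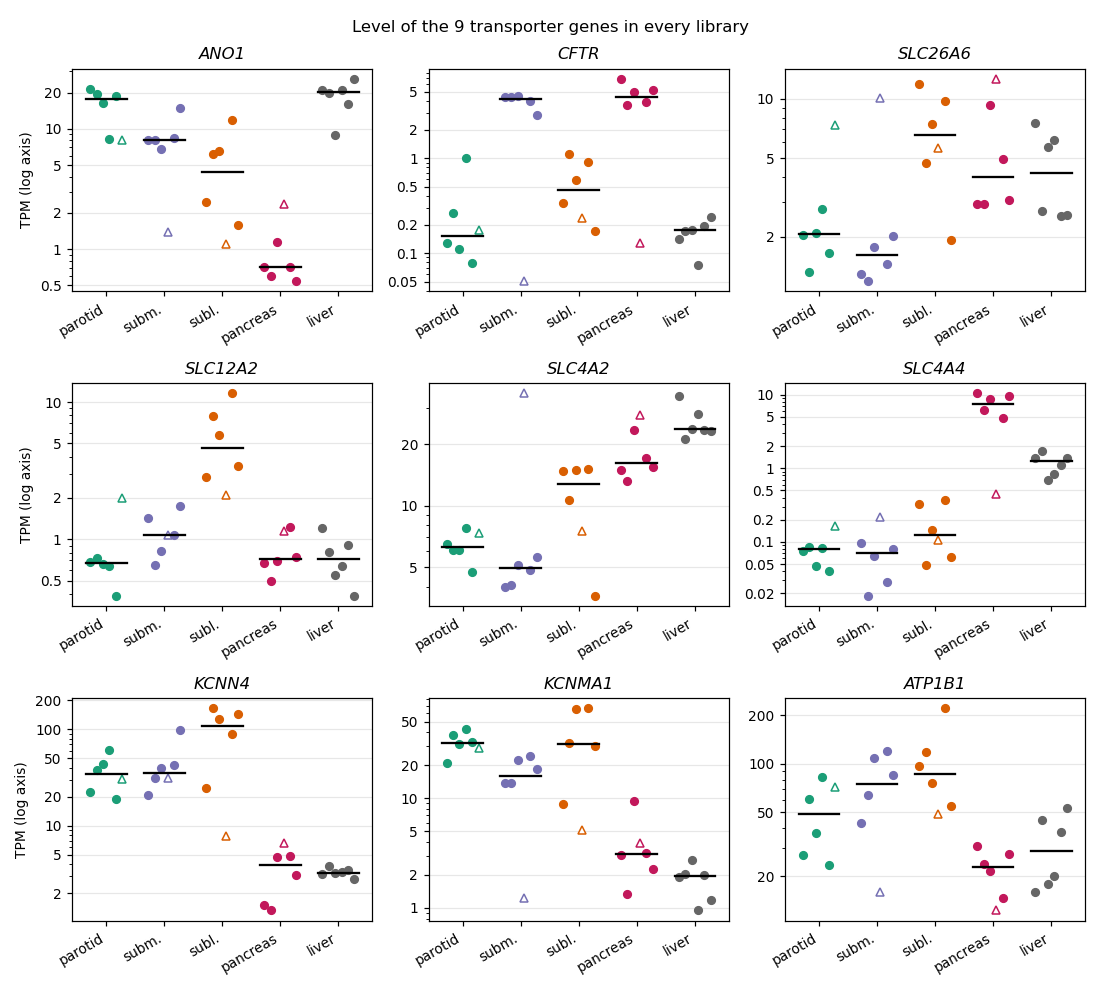
Level of each of the 9 transporter genes in every library, in TPM on a log axis, by tissue (subm., submandibular; subl., sublingual). Each point is 1 library, placed in order of animal, bars are medians of 6 libraries, and open triangles are the 4 libraries that stood apart on tissue markers; KCNN4 lay at 7.86 to 167 TPM in the glands and at 1.32 to 6.57 TPM in pancreas and liver.

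The comparisons of each gland with pancreas called 6 to 7 of the 9 genes. In parotid 3 were higher and 3 lower, where 15.8% of all genes tested were called (2.24% higher, 13.6% lower). In submandibular gland 4 were higher and 2 lower, against 9.71% of all genes (2.25% higher, 7.46% lower). In sublingual gland 5 were higher and 2 lower, against 13.9% of all genes (10.4% higher, 3.51% lower). These comparisons share the pancreas libraries. KCNN4, KCNMA1 and ANO1 were higher than in pancreas in each gland, and SLC4A4 was lower in each.

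Against liver, 4 genes differed in parotid (2 higher, 2 lower), 7 in submandibular gland (4 higher, 3 lower) and 7 in sublingual gland (4 higher, 3 lower). The background was large in these comparisons, since 58.0%, 50.7% and 31.5% of all genes were called, and the 4 of 9 in parotid are no larger a share than that. By direction, 4.61%, 5.68% and 12.8% of all genes were higher than in liver, and 53.4%, 45.1% and 18.7% were lower. Pancreas differed from liver in 3 genes, with CFTR and SLC4A4 higher and ANO1 lower, against 30.4% of all genes (6.76% higher, 23.6% lower).

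Among the glands, parotid and submandibular gland differed in 1 of the 9 genes, CFTR, and in 0.347% of all genes (0.133% higher in parotid, 0.214% lower). Parotid and sublingual gland differed in 3 (ANO1 higher in parotid, SLC12A2 and SLC26A6 lower), against 41.5% of all genes (0.893% higher, 40.6% lower). Submandibular and sublingual gland also differed in 3 (CFTR higher in submandibular gland, SLC12A2 and SLC26A6 lower), against 27.9% of all genes (0.753% higher, 27.2% lower). The 3 of 9 members were a smaller share than that of all genes in the first of these sublingual comparisons and a slightly larger one in the second.

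**Figure D2:**
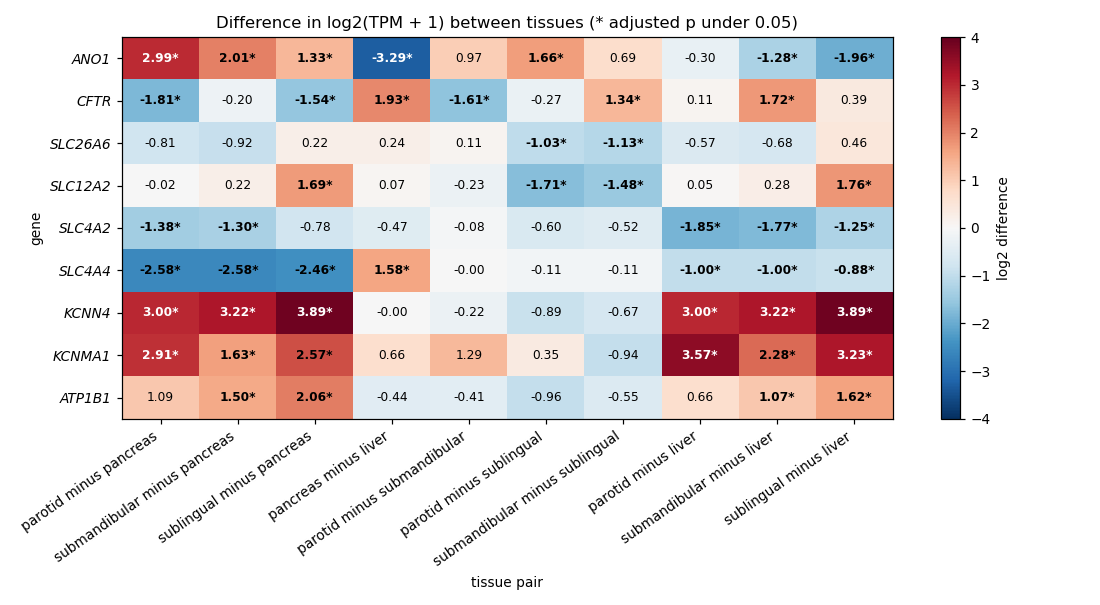
Differences of the 9 genes in log2(TPM + 1) for the 10 tissue pairs, first-named tissue minus the second, with red for higher and blue for lower in the first tissue and an asterisk for an adjusted p under 0.05. The potassium channel genes are called in each comparison of a gland with pancreas or liver, with differences of 1.63 to 3.89, and SLC4A4 is called in each comparison that has pancreas on one side.

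The direction of these counts depends on how libraries are scaled. The median difference of all tested genes was not 0: it was -0.48, -0.33 and 0.23 for parotid, submandibular and sublingual gland against pancreas, -0.36 for pancreas against liver, and -0.84, -0.70 and -0.10 for the same glands against liver. It was -0.13 for parotid against submandibular gland, -0.70 for parotid against sublingual gland and -0.56 for submandibular against sublingual gland. The 10 most abundant genes took 20.3 to 27.4% of all TPM in liver, 14.2 to 49.6% in pancreas, 18.7 to 52.5% in sublingual gland, 11.1 to 78.9% in submandibular gland and 38.8 to 81.4% in parotid. After trimmed-mean scaling, which sets libraries on a common level from the genes that are not extreme, these medians lay between -0.04 and 0.035. The share of all calls that were higher in the first tissue then moved from 14.2% to 51.3% for parotid against pancreas, from 23.2% to 51.3% for submandibular gland against pancreas, and from 74.8% to 53.3% for sublingual gland against pancreas. It moved from 22.3% to 41.3% for pancreas against liver, from 2.15% to 48.1% for parotid against sublingual gland and from 2.69% to 43.9% for submandibular against sublingual gland. Against liver it moved from 7.94% to 46% in parotid and from 11.2% to 44.5% in submandibular gland.

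After trimmed-mean scaling, parotid against pancreas called 4 of the 9 genes higher and 3 lower, where 17.4% of all genes were called (8.92% higher, 8.45% lower). Submandibular gland against pancreas called 4 and 2, with 16.1% of all genes (8.25% and 7.82%), and sublingual gland against pancreas 4 and 3, with 21.3% (11.4% and 9.97%). Pancreas against liver stayed at 2 and 1, with 36.8% of all genes (15.2% and 21.6%). Against liver, parotid called 4 and 1, with 43.5% of all genes (20.0% and 23.5%), submandibular gland 5 and 1, with 46.6% (20.8% and 25.9%), and sublingual gland 4 and 2, with 44.1% (20.4% and 23.7%). Between glands, parotid against submandibular gland stayed at 0 and 1, with 0.716% of all genes (0.295% and 0.421%). Parotid against sublingual gland called 1 and 1, with 17.5% of all genes (8.43% and 9.11%), and submandibular against sublingual gland 2 and 1, with 14.7% (6.46% and 8.26%). None of the 47 differences called on the deposited scale had the opposite sign after trimmed-mean scaling. Of the 90 tests, 17 changed sign, none of them called under either scaling.

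**Figure D3:**
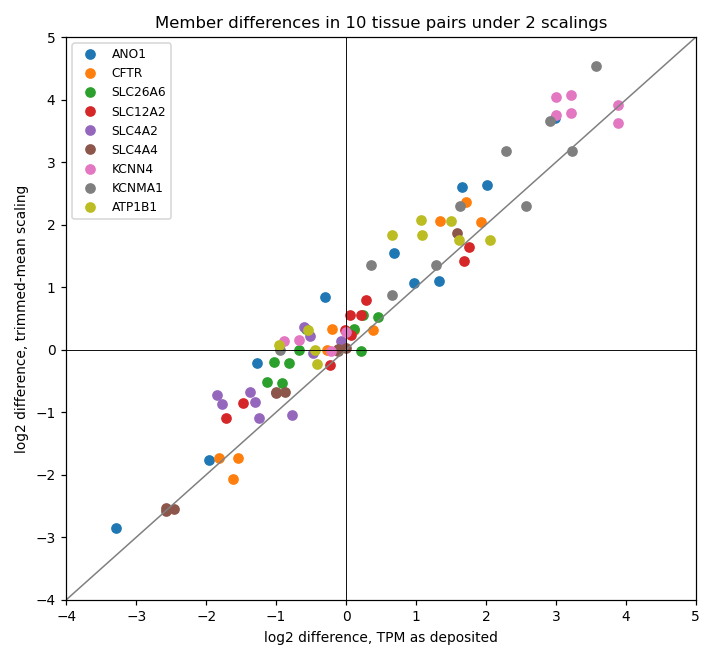
Difference in log2(TPM + 1) of the 9 genes in the 10 tissue pairs on the deposited scale (horizontal axis) and after trimmed-mean scaling (vertical axis), 1 point per gene and pair, with the line of equal values. The 17 points that change sign lie at the upper left or lower right of the crossed zero lines, and none of them is a called difference.

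ANO1, the calcium-activated chloride channel through which chloride leaves acinar cells, was lowest in pancreas and highest in liver and parotid. Its level in parotid was 8.01, 17.5 and 21.3 TPM (lowest, median and highest of 6), in submandibular gland 1.4, 8.11 and 14.8 TPM, and in sublingual gland 1.1, 4.34 and 11.9 TPM. In pancreas it was 0.542, 0.715 and 2.37 TPM, and in liver 8.82, 20.3 and 26.1 TPM. No pancreas library reached the lowest parotid or the lowest liver library, while the submandibular and sublingual ranges overlapped the pancreas only through libraries of animal 4. In bulk tissue, a lower level from fewer cells of a type and one from less RNA per cell cannot be told apart.

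On the log2(TPM + 1) scale, on which changes of low genes are understated, ANO1 was higher than in pancreas by 2.99 in parotid (SE 0.42, adjusted p = 9.55e-06, higher in 6 of 6 animals), by 2.01 in submandibular gland (SE 0.42, adjusted p = 0.00151, 5 of 6) and by 1.33 in sublingual gland (SE 0.42, adjusted p = 0.0312, 5 of 6). The exception in submandibular and sublingual gland was animal 4. The sublingual difference was 1.10 after trimmed-mean scaling (adjusted p = 0.0796), and it missed the threshold in the 12-library fit (adjusted p = 0.0837) and when animal 1, 2, 3 or 5 was left out (1.01 to 1.39). Without the 3 libraries the gland differences were 3.45, 2.52 and 1.62, all called. Relative to the median of all genes they were 3.47, 2.34 and 1.10.

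ANO1 was lower in pancreas than in liver by 3.29 (-3.29, SE 0.42, adjusted p = 4.28e-07, lower in 6 of 6). It was lower in submandibular and sublingual gland than in liver as well, with differences of -1.28 (adjusted p = 0.013) and -1.96 (adjusted p = 0.00049), of which the first was -0.22 with an adjusted p of 0.708 after trimmed-mean scaling. Parotid and liver were neighbours in the order of levels with a difference of 0.30 in favour of liver and a 95% interval from -0.55 to 1.16. Parotid exceeded sublingual gland by 1.66 (adjusted p = 0.0034, 6 of 6 animals). Parotid and submandibular gland (difference 0.97, interval 0.12 to 1.83, adjusted p = 1), and submandibular and sublingual gland (0.69, interval -0.17 to 1.54, adjusted p = 0.213), did not pass. The last of these passed after trimmed-mean scaling, at 1.54 (adjusted p = 0.0226).

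CFTR, the cyclic-AMP-regulated anion channel that carries chloride and bicarbonate, was high in pancreas and submandibular gland and low elsewhere. It was at 3.65 to 6.9 TPM in the pancreas of the animals other than 4 and at 0.129 TPM in that of animal 4, with a median of 4.45 TPM. In submandibular gland it was at 2.83 to 4.49 TPM in those animals and at 0.0505 TPM in animal 4, with a median of 4.2 TPM. The 2 low values belong to libraries that also lacked most acinar or secretory RNA.

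Parotid CFTR ran from 0.078 through a median of 0.15 to 1 TPM, sublingual CFTR from 0.172 through 0.462 to 1.12 TPM, and liver CFTR from 0.0744 through 0.173 to 0.238 TPM. The highest parotid value was that of animal 4, whose next-highest neighbour was 0.262 TPM. With the libraries of animal 4 set aside, no submandibular or pancreas library fell within the range of the parotid, sublingual or liver libraries.

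The difference from pancreas was -1.81 in parotid (SE 0.33, adjusted p = 0.000348, lower in 5 of 6 animals) and -1.54 in sublingual gland (SE 0.33, adjusted p = 0.00174, 5 of 6). Without the 3 libraries they were -2.24 and -1.95. Submandibular gland and pancreas did not differ beyond their spread: the difference was -0.20, with an interval from -0.89 to 0.48, and it was 0.33 after trimmed-mean scaling. CFTR was higher than in liver by 1.93 in pancreas (adjusted p = 5.39e-05) and by 1.72 in submandibular gland (adjusted p = 0.000153).

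Between glands, submandibular CFTR exceeded sublingual CFTR by 1.34 (adjusted p = 0.00532, 5 of 6 animals), a call missed narrowly in the 12-library fit (adjusted p = 0.0506). It was the only one of the 9 genes called between parotid and submandibular gland, at -1.61 (SE 0.33, adjusted p = 0.0226, lower in parotid in 5 of 6). That call missed the threshold in the 12-library fit (adjusted p = 0.468) and when animal 1, 2, 3, 5 or 6 was left out (adjusted p 0.156 to 0.284). Without the 3 libraries the difference was -2.01, with an adjusted p of 4.76e-06. With all libraries, sublingual gland, parotid and liver were not separated, with neighbouring differences of 0.27 (interval -0.42 to 0.96) and 0.11 (interval -0.57 to 0.80). Leaving out animal 4 brought parotid against sublingual gland to -0.47 (adjusted p = 0.0373). Leaving out 4 libraries brought sublingual gland against liver to 0.51 (adjusted p = 0.0411). Trimmed-mean scaling of all libraries gave -0.0056 and 0.31 for these 2 pairs, neither called.

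SLC26A6, an apical exchanger of chloride for bicarbonate and other anions, was called in the fewest pairs of the 9 genes. It ran from 1.33 through a median of 2.06 to 7.32 TPM in parotid, from 1.19 through 1.61 to 10.1 TPM in submandibular gland, and from 1.93 through 6.52 to 11.9 TPM in sublingual gland. In pancreas it ran from 2.92 through 4 to 12.6 TPM and in liver from 2.54 through 4.19 to 7.56 TPM. The ranges of all tissues overlapped, and the highest values in parotid, submandibular gland and pancreas were those of the 3 libraries with muscle or adipose RNA.

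Only its 2 differences from sublingual gland were called, at -1.03 in parotid (SE 0.39, adjusted p = 0.0369, lower in 5 of 6 animals) and -1.13 in submandibular gland (SE 0.39, adjusted p = 0.0314, lower in 4 of 6). After trimmed-mean scaling they were -0.19 (adjusted p = 0.592) and -0.52 (adjusted p = 0.111), and both missed the threshold in the 12-library fits and when animal 1, 2, 3 or 5 was left out. Without the animal block the parotid difference had an adjusted p of 0.0539. Leaving out the 3 libraries moved them to -1.38 and -1.43 and brought 4 more pairs past the threshold, namely parotid and submandibular gland against pancreas (-0.98 and -1.04) and against liver (-0.92 and -0.98). In the order of levels no neighbouring tissues differed, the widest step being 0.57 from liver to parotid (interval -0.23 to 1.36).

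SLC12A2, the cotransporter that brings in sodium, potassium and chloride across the basolateral membrane, was high in the sublingual gland. Its sublingual level ran from 2.1 through a median of 4.6 to 11.6 TPM. It ran from 0.387 through 0.673 to 2 TPM in parotid, from 0.644 through 1.07 to 1.74 TPM in submandibular gland, from 0.495 through 0.715 to 1.23 TPM in pancreas and from 0.388 through 0.718 to 1.21 TPM in liver. Every sublingual library lay above every library of the other tissues, although the parotid of animal 6, at 2 TPM, came close to the sublingual gland of animal 4, at 2.1 TPM.

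Sublingual SLC12A2 was higher than in pancreas by 1.69 (SE 0.27, adjusted p = 4.49e-05), than in parotid by 1.71 (-1.71 as parotid minus sublingual, adjusted p = 5.60e-05), than in submandibular gland by 1.48 (-1.48 as submandibular minus sublingual, adjusted p = 0.000503) and than in liver by 1.76 (adjusted p = 7.11e-06). All 6 animals showed each of them. After trimmed-mean scaling the differences were 1.42 against pancreas and 1.65 against liver. They were -1.09 for parotid minus sublingual gland (adjusted p = 0.00132) and -0.85 for submandibular minus sublingual gland (adjusted p = 0.0125). All 4 remained called. With libraries of the pair alone, the submandibular difference had an adjusted p of 0.0675. The other 4 tissues followed in steps of 0.22, 0.016 and 0.05, and the upper ends of their intervals were 0.77, 0.57 and 0.60. None of the pairs among these 4 tissues was called on the deposited scale, while trimmed-mean scaling called parotid and submandibular gland above liver, by 0.55 (adjusted p = 0.0443) and 0.79 (adjusted p = 0.00482).

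SLC4A2, the chloride-bicarbonate exchanger AE2, was highest in liver and lower in parotid and submandibular gland. It ran from 21.3 through a median of 23.7 to 34.4 TPM in liver and from 13.2 through 16.3 to 27.8 TPM in pancreas. In sublingual gland it ran from 3.62 through 12.8 to 15.2 TPM, in parotid from 4.75 through 6.29 to 7.78 TPM, and in submandibular gland from 3.99 through 4.98 to 35.5 TPM. The submandibular maximum was animal 4, and the other 5 lay at 5.6 TPM or below, under every pancreas and liver library.

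The difference from pancreas was -1.38 in parotid (SE 0.36, adjusted p = 0.00905, lower in 6 of 6 animals) and -1.30 in submandibular gland (SE 0.36, adjusted p = 0.0182, lower in 5 of 6). The first missed the threshold without animal 3 (adjusted p = 0.0682), and the second without animal 1, 2, 3 or 5 (adjusted p 0.0827 to 0.158). In sublingual gland the difference was -0.78 (adjusted p = 0.163, interval -1.51 to -0.045), and after trimmed-mean scaling it was -1.05 (adjusted p = 3.03e-05). Relative to the median of all genes the 3 differences were -0.89, -0.97 and -1.01.

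Against liver all glands were lower in SLC4A2, at -1.85 in parotid (adjusted p = 0.000129), -1.77 in submandibular gland (adjusted p = 0.000237) and -1.25 in sublingual gland (adjusted p = 0.00783). The last missed the threshold without animal 6, at an adjusted p of 0.0546. Pancreas and liver were not separated (-0.47, interval -1.21 to 0.26), nor were neighbouring glands (0.52, interval -0.22 to 1.25 for sublingual above submandibular gland, and 0.079, interval -0.66 to 0.81, for submandibular gland above parotid). Without the 3 libraries, SLC4A2 was lower than in sublingual gland in parotid (-0.70) and in submandibular gland (-0.96), both called, whereas trimmed-mean scaling of all libraries gave 0.36 and 0.22, neither called.

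SLC4A4, the sodium bicarbonate cotransporter NBCe1, was high in pancreas, lower in liver and lowest in the glands. In pancreas it ran from 0.444 through a median of 7.42 to 10.4 TPM, with the lowest value in animal 4 and the other 5 at or above 4.87 TPM. In liver it ran from 0.701 through 1.24 to 1.73 TPM. In the glands it ran from 0.0402 through 0.0793 to 0.163 TPM in parotid, from 0.0186 through 0.0717 to 0.215 TPM in submandibular gland, and from 0.0491 through 0.125 to 0.373 TPM in sublingual gland. Every pancreas library, that of animal 4 included, was above every gland library, and every liver library was too.

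The difference from pancreas was -2.58 in parotid (SE 0.29, adjusted p = 5.05e-07), -2.58 in submandibular gland (adjusted p = 5.30e-07) and -2.46 in sublingual gland (adjusted p = 6.16e-07), each lower in 6 of 6 animals. Without the 3 libraries they were -2.99, -3.04 and -2.87. Pancreas exceeded liver by 1.58 (SE 0.29, adjusted p = 9.65e-05, 5 of 6 animals), and by 1.99 without the 3 libraries. The glands were lower than liver by about the same amount, at -1.0 (adjusted p = 0.00491), -1.0 (adjusted p = 0.00572) and -0.88 (adjusted p = 0.019) for parotid, submandibular and sublingual gland, and none of these passed after trimmed-mean scaling (-0.67, -0.70 and -0.68, adjusted p 0.062 to 0.0792). The sublingual call was also lost without animal 2 or animal 6. Among the glands no difference was called, and the sublingual step above submandibular gland was 0.11 (interval -0.48 to 0.70).

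KCNN4, the intermediate-conductance calcium-activated potassium channel, was among the most abundant of the 9 in the glands. It ran from 19 through a median of 34.3 to 60.7 TPM in parotid, from 20.9 through 35.3 to 98.1 TPM in submandibular gland, and from 7.86 through 108 to 167 TPM in sublingual gland. In pancreas it ran from 1.32 through 3.91 to 6.57 TPM and in liver from 2.79 through 3.26 to 3.82 TPM. No gland library overlapped the pancreas or the liver, the lowest gland value being the sublingual gland of animal 4.

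KCNN4 was higher than in pancreas by 3.00 in parotid (SE 0.50, adjusted p = 0.000105), by 3.22 in submandibular gland (adjusted p = 5.53e-05) and by 3.89 in sublingual gland (adjusted p = 2.44e-06), each in 6 of 6 animals. It was higher than in liver by 3.00 (adjusted p = 2.00e-05), 3.22 (adjusted p = 8.88e-06) and 3.89 (adjusted p = 5.31e-07), again in 6 of 6. Between pancreas and liver the difference was -0.0047, with an interval from -1.03 to 1.02. Among the glands, the steps of 0.67 (interval -0.36 to 1.70) and 0.22 (interval -0.81 to 1.25) were not called. Leaving out animal 4 brought parotid against sublingual gland to -1.62 (adjusted p = 0.00122) and submandibular against sublingual gland to -1.17 (adjusted p = 0.00928), whereas trimmed-mean scaling of all libraries gave 0.14 and 0.16, neither called.

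KCNMA1, the pore subunit of the large-conductance BK potassium channel, shared the gland pattern. It ran from 20.8 through a median of 32 to 42.5 TPM in parotid, from 1.22 through 16.2 to 24.5 TPM in submandibular gland, and from 5.17 through 31.2 to 66.9 TPM in sublingual gland. In pancreas it ran from 1.33 through 3.09 to 9.51 TPM and in liver from 0.95 through 1.96 to 2.75 TPM. Parotid did not overlap pancreas or liver, and the low submandibular value was animal 4.

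KCNMA1 was higher than in pancreas by 2.91 in parotid (SE 0.45, adjusted p = 4.79e-05, 6 of 6 animals), by 2.57 in sublingual gland (adjusted p = 0.000185, 6 of 6) and by 1.63 in submandibular gland (adjusted p = 0.0201, 5 of 6). The submandibular call missed the threshold when any animal other than 4 was left out (1.42 to 1.72, adjusted p 0.0647 to 0.144). Without the 3 libraries that difference was 2.18 (adjusted p = 0.000387). Against liver the differences were 3.57 in parotid (adjusted p = 3.59e-07), 2.28 in submandibular gland (adjusted p = 0.0002) and 3.23 in sublingual gland (adjusted p = 2.31e-06).

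The KCNMA1 level of pancreas was 0.66 above liver (interval -0.28 to 1.59), a step that was not called. Parotid and sublingual gland differed by 0.35 (interval -0.59 to 1.28), and sublingual and submandibular gland by 0.94 (interval 0.0054 to 1.88, adjusted p = 0.12). Without animal 4 the last pair passed the threshold, at -0.83 as submandibular minus sublingual (adjusted p = 0.0371), whereas trimmed-mean scaling of all libraries gave -0.0035 (adjusted p = 0.998).

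ATP1B1, the beta subunit that carries the sodium pump to the membrane, was expressed throughout. It ran from 23.7 through a median of 49.1 to 82.7 TPM in parotid, from 16 through 74.6 to 121 TPM in submandibular gland and from 49.2 through 86.4 to 223 TPM in sublingual gland. In pancreas it ran from 12.3 through 22.8 to 31 TPM and in liver from 16.1 through 29 to 53.6 TPM. All sublingual libraries were above all pancreas libraries, while parotid, submandibular gland and liver overlapped the pancreas.

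ATP1B1 was higher than in pancreas by 2.06 in sublingual gland (SE 0.43, adjusted p = 0.00112, 6 of 6 animals) and by 1.5 in submandibular gland (adjusted p = 0.0224, 6 of 6). The parotid difference was 1.09 (interval 0.21 to 1.97, adjusted p = 0.0797, 5 of 6), and it passed after trimmed-mean scaling at 1.83 (adjusted p = 0.0113). The submandibular call missed the threshold without animal 2, 3, 5 or 6 (adjusted p 0.0569 to 0.158). Against liver, the differences were 1.62 in sublingual gland (adjusted p = 0.00422) and 1.07 in submandibular gland (adjusted p = 0.04, lost when any animal but 4 was left out, in the 12-library fit and with no filter). Parotid against sublingual gland was -0.96 (adjusted p = 0.0709), passed without animal 4 (-1.30) or animal 6 (-1.24), and was 0.08 and not called after trimmed-mean scaling. Parotid against liver was 0.66 (adjusted p = 0.189), and 1.84 after trimmed-mean scaling (adjusted p = 0.00446). No neighbours in the order of levels differed, from sublingual gland through submandibular gland, parotid and liver to pancreas, the steps being 0.55, 0.41, 0.66 and 0.44 with upper interval ends of 1.43, 1.29, 1.54 and 1.32.

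The partners of these genes were read from lists of 50 genes for anion exit, uptake and pH, potassium channels and their subunits, the sodium pump, duct sodium uptake and regulators. Of these, 49 were in the table and 36 passed the filter; FXYD2 was not analysed here. Parotid against pancreas called 4 partners higher and 8 lower, submandibular gland against pancreas 5 and 1, and sublingual gland against pancreas 13 and 2. Of all genes, 2.24% and 13.6%, 2.25% and 7.46%, and 10.4% and 3.51% were called there. Parotid against liver called 6 and 12, submandibular gland against liver 11 and 8, sublingual gland against liver 18 and 4, and pancreas against liver 5 and 2. The shares of all genes there were 4.61% and 53.4%, 5.68% and 45.1%, 12.8% and 18.7%, and 6.76% and 23.6%. Submandibular gland and pancreas against liver left 17 and 29 of 36 partners uncalled, where 50.7% and 30.4% of all genes were called. The partner share was near that of all genes in the first and smaller in the second. Between glands, parotid against submandibular gland called 0 and 1, parotid against sublingual gland 1 and 14, and submandibular against sublingual gland 1 and 8. All genes were called there at 0.133% and 0.214%, 0.893% and 40.6%, and 0.753% and 27.2%. The 14 and 8 of 36 partners lower than in sublingual gland are smaller shares than the 40.6% and 27.2% of all genes lower there, and the 18 of 36 called between parotid and liver a smaller share than the 58.0% of all genes. Leaving out the 3 libraries raised the lower partners against sublingual gland to 25 in parotid and 20 in submandibular gland, where 68.1% and 68.6% of all genes were lower. Against pancreas this gave 6 higher and 10 lower in parotid (3.34% and 24.8% of all genes). Submandibular gland gave 7 and 10 (4.03% and 30.9%) and sublingual gland 18 and 3 (32.0% and 5.76%). Against liver the counts were 7 and 14 in parotid (5.18% and 68.7%) and 11 and 14 in submandibular gland (5.75% and 68.2%). Sublingual gland against liver gave 18 and 6 (19.1% and 26.3%), and pancreas against liver 6 and 5 (8.25% and 43.8%). Trimmed-mean scaling of all libraries changed the partner counts to 6 and 4, 9 and 1, 13 and 4, 12 and 4, 17 and 3, 18 and 5, 9 and 2, 0 and 2, 2 and 4, and 2 and 2, in the order first given for all libraries. In the same order, all genes were then called at 8.92% and 8.45%, 8.25% and 7.82%, and 11.4% and 9.97% against pancreas. Against liver the shares were 20.0% and 23.5%, 20.8% and 25.9%, 20.4% and 23.7%, and 15.2% and 21.6%. Between glands they were 0.295% and 0.421%, 8.43% and 9.11%, and 6.46% and 8.26%.

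**Figure D4:**
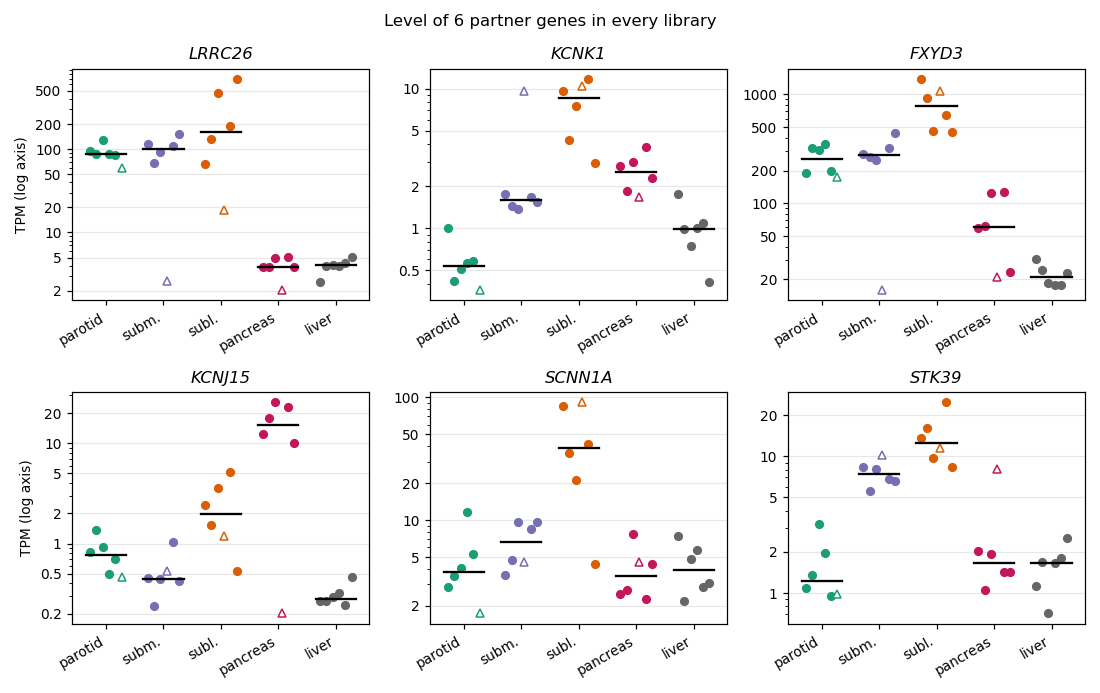
Level of 6 partner genes in every library, in TPM on a log axis, by tissue, with bars at the medians of 6 libraries and open triangles for the 4 libraries that stood apart. LRRC26, the gamma subunit that pairs with KCNMA1, had median levels of 3.88 TPM in pancreas and 87.2 TPM in parotid.

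Of the tested BK channel subunits, LRRC26 and KCNMB1 had higher medians in all 3 glands than in pancreas and liver, as KCNMA1 did. LRRC26, which shifts BK gating toward the resting voltage, was at 262 ± 265 TPM in sublingual gland, 90.6 ± 22.9 in parotid, 90.1 ± 51.5 in submandibular gland, 3.99 ± 0.82 in liver and 3.94 ± 1.08 in pancreas (mean ± SD, n = 6). It was higher than in pancreas by 4.21, 3.63 and 4.95 in the 3 glands (adjusted p at or below 7.48e-05), and the lowest submandibular library, 2.63 TPM, was animal 4. The beta subunit KCNMB1 was higher than in pancreas in parotid (1.47, adjusted p = 0.0362) and sublingual gland (1.66, adjusted p = 0.0175). In the pancreas of animal 4 it was at 16.2 TPM. There 7 smooth muscle and myoepithelium genes summed to 4487 TPM, against 34.1 to 201 TPM in the other pancreas libraries. In sublingual gland that sum was 1037 TPM at the highest KCNMB1 (17.6 TPM, animal 3) and 2076 TPM at the lowest (2.35 TPM, animal 4). The part of such cells in the KCNMB1 differences was not tested. KCNMB3, another beta subunit, was lower in parotid than in pancreas (-1.10, adjusted p = 0.00979), and KCNMB4 was lower in parotid than in sublingual gland (-1.01, adjusted p = 0.0307, and -0.40 with an adjusted p of 0.18 after trimmed-mean scaling).

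Among other potassium channels, KCNJ15, an inward rectifier, was at 14.8 ± 9.27 TPM in pancreas and at most 2.41 TPM on average elsewhere. It was lower in the glands than in pancreas, with differences of -2.68, -2.92 and -1.89 (adjusted p at or below 0.00196), and higher in pancreas than in liver by 3.12 (adjusted p = 1.06e-06). Its pancreas level in animal 4 was 0.203 TPM, the lowest of the 6. KCNK1, a leak potassium channel, was at 7.75 TPM in sublingual gland and 0.577 TPM in parotid, a difference of -2.36 (adjusted p = 1.91e-06). KCNK5, of the same family, was lower than in liver in all glands, at -2.34, -2.28 and -1.85. KCNJ16 was higher in pancreas than in liver by 1.40 (adjusted p = 0.00149).

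The potassium chloride cotransporter SLC12A7 was highest in liver, at 28.2 ± 16.6 TPM, with -2.39 in pancreas against liver and -3.54 in parotid against liver. The anion transporter SLC26A9 was higher than in pancreas in submandibular gland (1.63, adjusted p = 0.0119) and sublingual gland (2.17, adjusted p = 0.000595).

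Of the sodium pump partners, FXYD3, a regulatory subunit, was higher than in pancreas in each gland, by 2.13, 1.74 and 3.73. The beta subunit ATP1B3 was higher than in liver in sublingual gland (2.44) and submandibular gland (1.33, adjusted p = 0.0311). Submandibular ATP1B3 reached 51.7 TPM in animal 4 against 5.25 to 10.9 TPM elsewhere, and without the 3 libraries that difference was 0.97 and not called (adjusted p = 0.0619). FXYD1 was at 1582 ± 333 TPM in liver, 4.33 above pancreas (-4.33 as pancreas minus liver), and FXYD5 was lower in parotid than in liver (-1.87, adjusted p = 0.0307). FXYD5 was at 154 TPM in the submandibular gland and 137 TPM in the pancreas of animal 4, and without the 3 libraries it was also lower in parotid (-1.81, adjusted p = 0.00121) and submandibular gland (-2.01, adjusted p = 0.000499) than in sublingual gland, and lower in submandibular gland than in pancreas (-1.27) and liver (-2.27). In those 4 comparisons 68.1%, 68.6%, 30.9% and 68.2% of all genes were lower. After trimmed-mean scaling of all libraries, 1 sodium pump partner was lower in parotid than in liver, against 2 on the deposited scale. That scaling called 0 sodium pump partners lower in parotid or submandibular gland than in sublingual gland, and 0 lower in submandibular gland than in pancreas.

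The 4 tested genes of duct sodium uptake, SCNN1A, SCNN1B and SCNN1G of the epithelial sodium channel and the exchanger SLC9A3, were all higher in sublingual gland than in pancreas, by 2.84, 2.93, 1.64 and 0.87. All 4 were also higher than in liver, parotid and submandibular gland, comparisons in which 12.8%, 40.6% and 27.2% of all genes were higher in sublingual gland. SCNN1G missed the threshold against submandibular gland without the 3 libraries (-0.71 as submandibular minus sublingual, adjusted p = 0.0506). After trimmed-mean scaling 4 of 4 remained higher than in pancreas and liver, 2 of 4 than in parotid (SCNN1A and SCNN1B) and 1 of 4 than in submandibular gland (SLC9A3). In sublingual gland SCNN1A ran from 4.37 through a median of 38.6 to 91 TPM and SCNN1B from 2.34 through 7.41 to 67.5 TPM, and both highest values were those of animal 4, a library that stood apart. The next-highest values were 85.6 TPM for SCNN1A and 24 TPM for SCNN1B, both in animal 1. The 6 duct epithelium markers summed to 126 to 314 TPM in sublingual gland, 55.3 to 167 TPM in parotid, 19.8 to 151 TPM in submandibular gland, 99.9 to 244 TPM in pancreas and 149 to 226 TPM in liver. Of these 6, 3 were higher in sublingual gland than in parotid, 3 than in submandibular gland, 3 than in liver and 1 than in pancreas, while 1 was lower than in pancreas, and their part in the sodium uptake differences was not tested.

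Among the 7 regulators, the kinase STK39, which activates SLC12A2, was at 7.6 ± 1.61 TPM in submandibular gland and 14 ± 5.94 TPM in sublingual gland against 1.6 ± 0.879 TPM in parotid, 2.67 ± 2.71 in pancreas and 1.59 ± 0.618 in liver. It was the only partner called between parotid and submandibular gland, at -1.77 (SE 0.31, adjusted p = 0.00482). AHCYL1, known as IRBIT, which acts on SLC4A4 and CFTR, was lower than in pancreas in parotid (-1.65, adjusted p = 0.0116) and sublingual gland (-1.66, adjusted p = 0.0112). EZR, a membrane scaffold linker, was lower in parotid than in sublingual gland, at -1.98, which was -0.97 (adjusted p = 0.0944) after trimmed-mean scaling. WNK1 was lower than in liver in parotid (-1.22) and submandibular gland (-1.12), and neither passed after trimmed-mean scaling. NHERF1 (SLC9A3R1), OXSR1 and WNK4 were called in no pair with all libraries on the deposited scale. Their results after trimmed-mean scaling are not given here. With the 3 libraries left out, SLC9A3R1 was called in 1 pair (sublingual gland above pancreas, 1.13, adjusted p = 0.0345), OXSR1 in 3 and WNK4 in 5. Among them was parotid below sublingual gland for OXSR1 (-0.63, adjusted p = 0.0405) and WNK4 (-0.75, adjusted p = 0.00275). In that fit 68.1% of all genes were lower in parotid than in sublingual gland. The median difference of all genes there was -0.85, a larger fall than that of either gene. In sublingual gland against pancreas 32.0% of all genes were higher, with a median of 0.40.

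The genes whose log2(TPM + 1) followed each transporter most closely over the 30 libraries are given as a description, since libraries of 1 tissue or 1 animal are not independent and share the same scaling. For KCNMA1 they were AQP5, the water channel of salivary acini (r = 0.951), MPPED2 (0.943) and TH (0.931). For SLC4A4 they were SLC16A12 (r = 0.975), AQP8, a water channel (0.962), and ERO1B (0.962), and for SLC12A2 they were TMC5 (r = 0.93), FCGBP (0.911) and ISL2 (0.893). For KCNN4 they were IRX2 (r = 0.934), C6H5orf38 (0.926) and SLC22A3 (0.923), and for ANO1 ATP2B2 (0.897), ST3GAL1 (0.85) and FYB2 (0.819).

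CFTR went most closely with NUCB2 (r = 0.816), TTLL7 (0.796) and the calcium-sensing receptor CASR (0.791), and ATP1B1 with FA2H (0.849), TFCP2L1 (0.83) and CLDN8 (0.815). SLC4A2 went with RAB11FIP3 (0.971), CTDSP1 (0.968) and CNPPD1 (0.964), and SLC26A6 with CYHR1 (0.935), DAPK3 (0.933) and ANKRD10 (0.932). Among the 9 themselves the closest pair was KCNN4 and KCNMA1 (r = 0.86), followed by SLC4A2 and SLC26A6 (0.702), while CFTR and SLC4A4 reached 0.504. ANO1 had no near member, its highest value being 0.233 with KCNMA1.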

How the data were processed

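The authors deposited 1 table of TPM values for 21292 genes in 30 libraries, and its name points to kallisto. RNA came from 3 sections of 30 µm, and paired reads of 150 bases were sequenced, per the labels' protocols. The submitters' processing notes list kallisto, HISAT2, featureCounts and cutadapt without roles. The transcriptome is not given in the sources used here. The number of per-sample columns left unused was 0. Because TPM are shares of a fixed total, a few abundant genes lower the rest.

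Differences in log2(TPM + 1) were fitted in R 4.3.3 with limma 3.58.1, with tissue and animal as terms over all 30 libraries, moderated variances that follow a trend, genes at or above 1 TPM in at least 6 libraries, and p-values adjusted by Benjamini-Hochberg over 13550 genes in each pair of tissues. The fit was tested on simulated data. Same-animal libraries share an animal number in the labels, and their deviations from tissue means correlated at 0.161 on average over 60 pairs, against -0.0186 over 300 pairs of different animals. The highest correlation between 2 libraries was 0.979, and 0 pairs were identical.

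Members and lists were chosen with earlier results of these data known. The genes described are the 9 members; partners that are subunits or regulators; up to 3 partners each way by size in each pair; and the 3 genes most like each member. Alternatives were no animal block, 12 libraries of a pair, trimmed-mean scaling (30% of log ratios and 5% of mean levels trimmed), no filter, a pseudocount of 0.1, and leaving out 3 libraries, 4 libraries (added after seeing the data) or each animal. Some partner genes that this rule names are not reported here by name. No sequences are shown.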

Additional observations from a re-analysis of the deposited data

Results flagged for a closer look

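In each of 45 sets of 6 libraries (9 genes in 5 tissues) the highest or lowest library was compared with its neighbour, and 9 stood far from the other 5; about 1 in 20 sets, or 2.25 of 45, do so by chance. Of these, 4 were the submandibular gland of animal 4, in which CFTR was at 0.0505 TPM (next 2.83), KCNMA1 at 1.22 TPM (next 13.8), SLC4A2 at 35.5 TPM (next 5.6) and SLC26A6 at 10.1 TPM (next 2.02). The pancreas of animal 4 had the lowest CFTR, 0.129 TPM (next 3.65), and the lowest SLC4A4, 0.444 TPM (next 4.87). The parotid of animal 6 had the highest SLC12A2, 2 TPM (next 0.727), and the highest SLC26A6, 7.32 TPM (next 2.75). The parotid of animal 4 had the highest CFTR, 1 TPM (next 0.262). These libraries, apart from the parotid of animal 4, also carried the unusual adipose or muscle RNA given above, and its part in these values was not tested.

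In 1 of 90 comparisons, all female animals moved one way and both males the other. The parotid minus submandibular difference of KCNN4 averaged 0.36 in the 4 females and -1.38 in the 2 males, a gap of 1.75 on the log2 scale. A split of this kind can arise by chance among 90 comparisons. The parotid of animal 6, a male, was also the library with the muscle RNA given above. That gap was not tested.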

How the results depend on the processing

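Depth is unknown, so no detection limit is given; 6 animals per tissue and 4 libraries that stand apart set the precision. Without the animal block (no replicate block), 1 of the 90 gene differences, SLC26A6 in parotid against sublingual gland, missed the threshold (adjusted p = 0.0539), and no other call changed. No filter lost 2 calls and gained none. With only the 12 libraries of a pair, 7 calls were lost and 1 was gained, which left 0 of the members called for parotid against submandibular gland and 0 for submandibular against sublingual gland. Without 3 libraries, the members called became 5 for parotid against sublingual gland and 5 for submandibular against sublingual gland, where 69.4% and 69.7% of all genes were called, and without 4 libraries they became 6 and 6, where 68.4% and 69.9% were. When each animal was left out in turn, the counts ran from 3 to 7 for submandibular gland against pancreas (6 with all), 0 to 1 for parotid against submandibular gland (1), 2 to 7 for parotid against sublingual gland (3) and 2 to 6 for submandibular against sublingual gland (3). The share of all genes called in the 12-library fits and in the fits without an animal is not given here. The member counts of those fits are therefore not set against it. The cause of these changes was not tested.

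Sign changes are given as the first tissue minus the second, and none was called on either side. Trimmed-mean scaling gave, for ANO1, 0.85 in parotid against liver; for CFTR, 0.33 in submandibular gland against pancreas; for SLC12A2, 0.32 in parotid against pancreas; for SLC4A2, 0.14 in parotid against submandibular gland, 0.36 in parotid against sublingual gland and 0.22 in submandibular against sublingual gland. It gave, for SLC4A4, 0.034 in parotid against submandibular gland and 0.0089 in parotid against sublingual gland, and for SLC26A6, -0.025 in sublingual gland against pancreas, 0.33 in parotid against liver and 0.00092 in submandibular gland against liver. For KCNN4 it gave 0.29 in pancreas against liver, 0.14 in parotid against sublingual gland and 0.16 in submandibular against sublingual gland, and for ATP1B1, 0.0035, 0.08 and 0.31 in the same pairs. A pseudocount of 0.1 gave 0.037 for SLC4A4 in parotid against submandibular gland.

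Without 3 libraries, SLC12A2 was -0.047 in pancreas against liver and -0.11 in parotid against liver, and in parotid against submandibular gland SLC4A2 was 0.26, SLC4A4 0.052 and KCNN4 0.02. Without 4 libraries, SLC12A2 was -0.13 in parotid against liver, SLC4A2 was 0.21 and SLC4A4 0.055 in parotid against submandibular gland, and KCNMA1 was -0.072 in parotid against sublingual gland. With 1 animal left out, the values nearest to the opposite direction were -0.043 for CFTR in parotid against liver, 0.12 and -0.16 for SLC12A2 in parotid against pancreas and liver, -0.081 for SLC26A6 in sublingual gland against pancreas, 0.21 for KCNN4 in pancreas against liver and -0.15 for KCNMA1 in parotid against sublingual gland. In parotid against submandibular gland they were 0.32 for SLC4A2, 0.033 for SLC4A4, -0.16 for SLC26A6 and 0.07 for KCNN4.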

Other observations

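Partners removed by the filter were low in every tissue, and some still differed in level, given here without a test. SLC4A7, an electroneutral sodium bicarbonate cotransporter, was at 1.7 TPM on average in sublingual gland (0.503 to 2.77) and at 0.357 TPM or less elsewhere. SLC4A8, a sodium-driven chloride-bicarbonate exchanger, was at 0.494 TPM on average in pancreas and at 0.0207 TPM or less elsewhere. KCNMB2, a BK beta subunit, was at 1.2 TPM on average in pancreas and at 0.163 TPM or less elsewhere.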
